A study of Mus musculus with 4 samples.

Results

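Trp53, which encodes the transcription factor p53, and 9 genes that p53 activates (Phlda3, Bbc3, Mdm2, Trp53inp1, Ccng1, Sesn2, Eda2r, Zmat3 and Bax) were examined in sorted Lgr5-GFP-high intestinal stem cells, 10 of the 18436 genes of the deposited table. Each was found by its symbol. The genes were chosen by name as textbook members of the p53 pathway, but with their values in this same comparison of genotypes already known, so their differences below are a description and carry no test. The cells came from 2 Lgr5-WT mice, which carry Lgr5-EGFP-IRES-creERT2, and from 2 Lgr5-CREPTKO mice, which carry this allele together with floxed alleles of Rprd1b, the gene of the transcription regulator CREPT. All 4 mice were of the C57BL/6 strain and received 1 mg of tamoxifen a day for 5 days, and the cells were sorted on day 7. GFP and the Cre recombinase are both expressed from Lgr5, so deletion and sorting both depend on the activity of that gene. The paper could not exclude that Cre is missing from part of the Lgr5-positive cells. The study used mice of both sexes aged between 6 and 8 weeks, and the sources used here do not give the age and sex of each of these 4.

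p53 is held at a low level in unstressed cells, mainly because Mdm2 marks it for degradation. DNA damage and other stresses stabilise the protein without any need for more of its mRNA, and it then switches on genes for cell cycle arrest, for mitochondrial apoptosis, for DNA repair and for its own restraint. In the intestinal crypt, where stem cells divide rapidly, p53 and its target PUMA are best known for the response to irradiation.

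Values are FPKM, fragments normalised for transcript length and for library size, so that they can be compared between genes and are shares of a library. They summed to between 468830 and 499327 per mouse, and the number of reads behind them is unknown. Log2 fold changes were taken on log2(FPKM + 0.5), as Lgr5-CREPTKO minus Lgr5-WT, a scale on which changes at low levels look smaller than they are. Limma tested the 12621 genes whose mean over the mice reached 0.5 FPKM, and 16 were called higher and 128 lower (adjusted p under 0.05 with a log2 fold change beyond 1 in either direction). With 2 mice on each side the smallest two-sided p of an exact permutation test is 0.333, and leaving out any 1 of the 4 mice left 0 genes called in either direction. A genotype is then down to a single mouse, whose spread is assumed to be that of the other genotype, while the log2 fold change stayed between 1.96 and 2.37 for Phlda3 and between -1.36 and -1.23 for Rprd1b. Rprd1b, the targeted gene, was 17.7 and 18.1 FPKM in Lgr5-WT cells and 6.65 and 7.36 FPKM in Lgr5-CREPTKO cells (log2 fold change -1.29, limma's adjusted p = 0.0280). The ratio of means was 0.392, so RNA of the gene remained in Lgr5-CREPTKO cells, and its source was not tested. The defining stem cell markers were present in all libraries. Olfm4 was 5077 and 4932 FPKM in Lgr5-WT cells and 5351 and 5181 FPKM in Lgr5-CREPTKO cells. Lgr5 was 47.7 and 37.7 FPKM against 52.0 and 60.1 FPKM.

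In outline, Phlda3, Eda2r, Bbc3, Zmat3, Ccng1 and Sesn2 stood higher in both Lgr5-CREPTKO mice, between 1.43 and 5.14 times the Lgr5-WT mean. Trp53 itself and Bax did not differ in level between the genotypes beyond the spread between mice, and Mdm2 and Trp53inp1 differed by a ratio of means of at most 1.15. Both Lgr5-CREPTKO values lay above both Lgr5-WT values in 8 of the 10 genes, and in the other 2 the genotypes overlapped. Over all genes tested this ordering occurred in 25.6%. At the call threshold 1 of the 10 genes, Phlda3, was past it on the higher side, against 0.127% of all genes tested. At an adjusted p below 0.05 alone, 3 of the 10 were higher (Phlda3, Bbc3 and Ccng1) and 0 lower, against 0.412% and 2.67% of all genes tested. Nothing is read from these counts about the 10 genes, because the same comparison was in view when they were chosen.

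**Figure D1:**
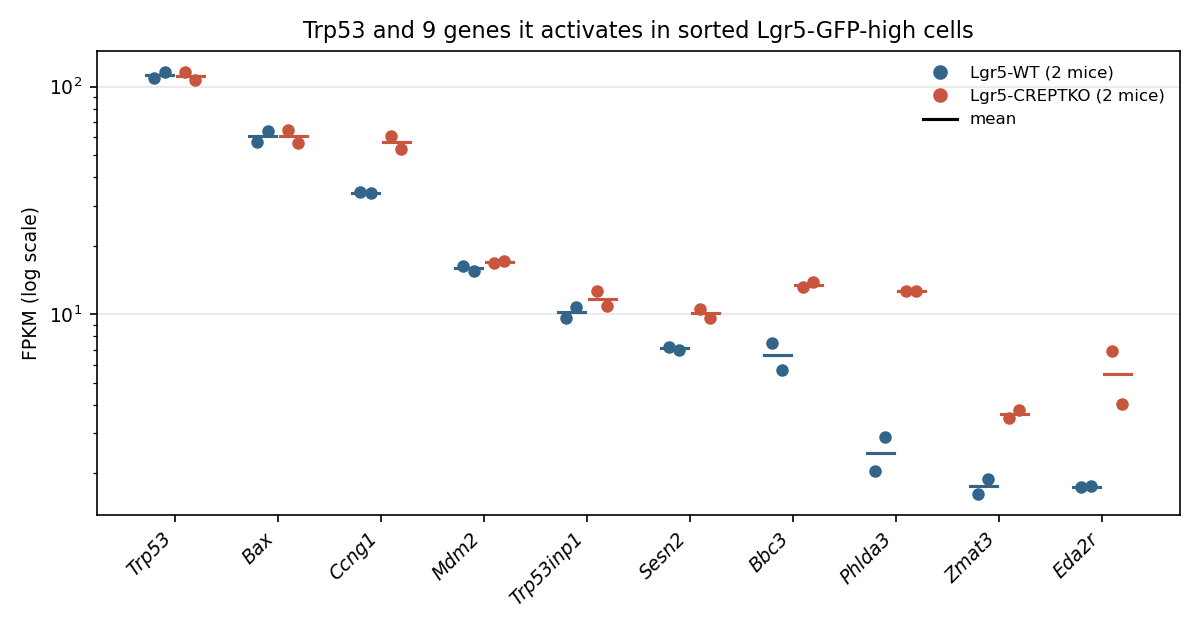
Level of each of the 10 genes in FPKM on a log axis, ordered by the Lgr5-WT mean. Points are single mice, blue for Lgr5-WT and red for Lgr5-CREPTKO (2 each), and short lines are means. The 2 colours overlap for Trp53 and Bax, nearly touch for Mdm2 and Trp53inp1, and lie clearly apart for the other 6, most of all for Phlda3.

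p53 binds DNA at a pair of 10-base motifs, each with a C and a G at fixed inner positions, and the region just before the transcription start was searched for this pair. A gene is counted as a p53 target partly because such an element lies near it, so matches among the 10 genes are not independent of how they were chosen. Windows from RefSeq (GRCm38.p6) running from 250 bases before to 50 bases after a start were available for 8 of the 10 genes, and not for Trp53inp1 and Zmat3. The p53 consensus pair with no spacer was searched on both strands (the consensus reads the same on each), with all 4 inner C and G letters required and at most 3 other mismatches, a limit set after the first matches were seen. Of the 10 windows of these 8 genes, 3 held a match, in Ccng1, Bbc3 and Trp53, and 453 of all 32851 windows did (1.38%). With at most 1 mismatch the share of all windows was 0.067%, and Ccng1 was the gene among the 10 with such a match. Cdkn1a, the p21 gene and the best known p53 target outside the 10, also had a match with 1 mismatch in its first window and none in its second. Ephx1 and Fdxr, targets outside the 10 that are described below, were searched as well and had no match. The matches are shown 5′ to 3′ on the strand of the gene with their flanks, in capitals where they match the 20-base pair, together with the 250 bases before the start of Phlda3, the gene with the largest difference, which hold no match.
Ccng1 (minus strand, chr11:40755442-40755501, match beginning 195 bases before the start): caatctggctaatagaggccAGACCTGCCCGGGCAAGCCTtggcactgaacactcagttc
Bbc3 (plus strand, chr7:16309466-16309525, match beginning 97 bases before the start, within an intron of a longer transcript): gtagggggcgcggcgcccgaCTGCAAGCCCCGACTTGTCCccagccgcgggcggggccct
Trp53 (plus strand, chr11:69580264-69580323, match beginning 75 bases before the start): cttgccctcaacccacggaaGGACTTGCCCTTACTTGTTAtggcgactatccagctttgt
Cdkn1a (plus strand, chr17:29090908-29090967, match beginning 51 bases before the start): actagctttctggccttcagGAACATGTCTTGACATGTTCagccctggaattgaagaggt
Phlda3 (plus strand, chr1:135765835-135766084): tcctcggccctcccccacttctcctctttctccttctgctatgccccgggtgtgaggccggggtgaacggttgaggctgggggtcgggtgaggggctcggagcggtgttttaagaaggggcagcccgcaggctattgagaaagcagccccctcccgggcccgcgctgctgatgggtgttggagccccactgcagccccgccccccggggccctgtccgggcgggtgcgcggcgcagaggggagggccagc

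Genes with a match in these windows included Ccng1 and Bbc3, which were higher in Lgr5-CREPTKO cells, and Trp53 and Cdkn1a, whose genotypes overlapped. Phlda3, Eda2r, Sesn2, Ephx1 and Fdxr were higher and had no match in the window. Mdm2 and Bax also had no match, and their log2 fold changes were 0.09 and -0.00345. A match is a run of letters and not evidence of binding, and elements further from the start, as in introns, were not searched.

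Trp53 is on chromosome 11 (69580348 to 69591873, GRCm38.p6 as for all genes here) and was 109.4 and 116.2 FPKM in Lgr5-WT cells and 116.3 and 107.5 FPKM in Lgr5-CREPTKO cells. The genotypes overlapped completely, with a ratio of means of 0.992 and a log2 fold change of -0.01 (standard error 0.0772), and 95.0% of the genes tested had a lower Lgr5-WT level. The 2 relatives of p53 were close to 0: Trp63 was at most 0.01 FPKM and Trp73 at most 0.07 FPKM in any mouse. mRNA level does not report on the amount of p53 protein, which was not measured in this series.

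Phlda3, on chromosome 1 from 135766085 to 135769134, encodes a small protein made of little more than a lipid-binding pleckstrin homology domain, which competes with the kinase Akt for the membrane. It was 2.04 and 2.89 FPKM in Lgr5-WT cells and 12.7 and 12.7 FPKM in Lgr5-CREPTKO cells. The lowest Lgr5-CREPTKO value was 4.38 times the highest Lgr5-WT value, the widest separation of the 10 genes. The ratio of means was 5.14 and the log2 fold change 2.17 (standard error 0.167). Among the 10 genes it was the eighth by level in Lgr5-WT cells and the sixth in Lgr5-CREPTKO cells.

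Of the genes of mitochondrial apoptosis, Bbc3, on chromosome 7 from 16308398 to 16318334, encodes PUMA, which binds and neutralises the protective members of the Bcl2 family. It was 7.50 and 5.70 FPKM in Lgr5-WT cells and 13.1 and 13.8 FPKM in Lgr5-CREPTKO cells, so the Lgr5-WT mice differed from each other more than the Lgr5-CREPTKO mice did. The ratio of means was 2.04 and the log2 fold change 0.99 (standard error 0.148), just under the fold change of the call threshold. Bax, on the same chromosome from 45461695 to 45466903, encodes a protein that forms pores in the outer mitochondrial membrane. It was 57.2 and 63.9 FPKM against 64.4 and 56.5 FPKM, with complete overlap and a log2 fold change of -0.00345 (standard error 0.101). The gene of the activator thus stood apart between the genotypes, while that of the pore-forming protein, which was more abundant, overlapped.

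Eda2r, on chromosome X from 97333837 to 97377234, encodes a receptor of the tumour necrosis factor family that binds an isoform of ectodysplasin. It was 1.74 and 1.76 FPKM in Lgr5-WT cells and 6.90 and 4.04 FPKM in Lgr5-CREPTKO cells. The Lgr5-WT mice were nearly equal, and the first Lgr5-CREPTKO mouse was 1.71 times the second, the largest gap between mice of the same genotype among the 10 genes. The ratio of means was 3.13 and the log2 fold change 1.37 (standard error 0.257). The latter was 1.01 without the first Lgr5-CREPTKO mouse and was 1.72 without the second.

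Zmat3 acts on mRNA and Sesn2 on growth. Zmat3, on chromosome 3 from 32334792 to 32365665, encodes a zinc finger protein that binds RNA and influences splicing and mRNA stability. It was 1.63 and 1.88 FPKM in Lgr5-WT cells and 3.50 and 3.80 FPKM in Lgr5-CREPTKO cells, a ratio of 2.08 and a log2 fold change of 0.88 (standard error 0.150). Sesn2, on chromosome 4 from 132492804 to 132510456, encodes sestrin 2, which lowers mTORC1 activity when amino acids are short. It was 7.21 and 6.95 FPKM against 10.5 and 9.67 FPKM, a ratio of 1.43 and a log2 fold change of 0.48 (standard error 0.0990). In both genes the gap between genotypes was wider than either gap within a genotype.

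The feedback genes behaved unequally. Ccng1, on chromosome 11 from 40748552 to 40755309, encodes cyclin G1, which brings a phosphatase to Mdm2. It was 34.4 and 34.1 FPKM in Lgr5-WT cells and 60.7 and 53.1 FPKM in Lgr5-CREPTKO cells, a ratio of 1.66 and a log2 fold change of 0.72 (standard error 0.0896), and it was the most abundant gene among those that stood apart. Mdm2, on chromosome 10 from 117688875 to 117710758, encodes the ubiquitin ligase of p53. It was 16.4 and 15.5 FPKM against 16.9 and 17.1 FPKM, which do not overlap but lie within a ratio of means of 1.07. The log2 fold change was 0.09 (standard error 0.0801), 0.0546 without the second Lgr5-WT mouse and 0.169 with columns rescaled to the same total. Trp53inp1, on chromosome 4 from 11156441 to 11174379, encodes a nuclear protein that assists p53 under stress. It was 9.64 and 10.8 FPKM against 12.6 and 10.8 FPKM, and the lower Lgr5-CREPTKO value was 1.01 times the higher Lgr5-WT value (log2 fold change 0.19, standard error 0.118). The latter was 0.0845 without the first Lgr5-CREPTKO mouse and was 0.295 without the second.

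**Figure D2:**
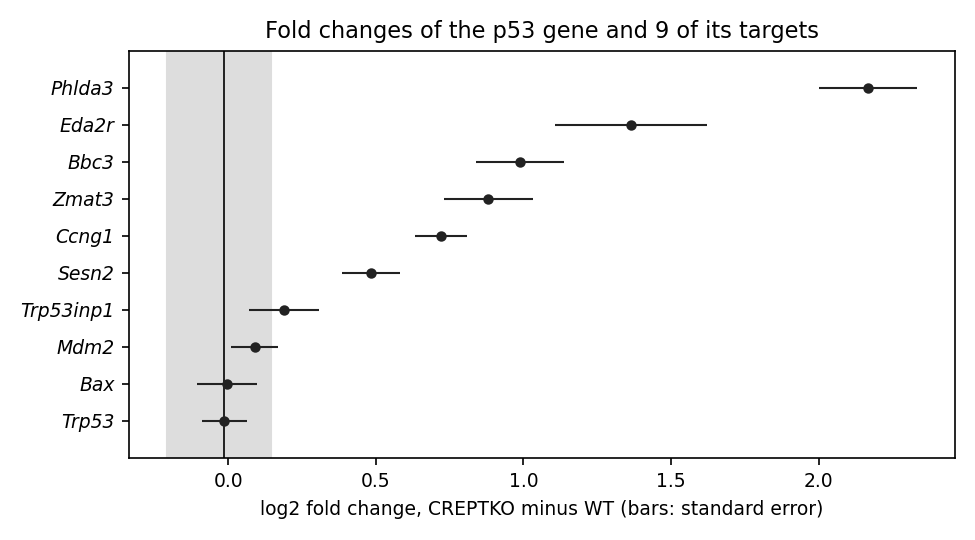
Log2 fold change (Lgr5-CREPTKO minus Lgr5-WT, on log2(FPKM + 0.5)) of the 10 genes, with bars for the standard error from the limma fit. The black line is the median of all 12621 genes tested (-0.01) and the grey band their middle quartiles (-0.21 to 0.15). Bax, Trp53 and Mdm2 lie in the band and Trp53inp1 just outside it, while the values of the other 6 run from 0.48 for Sesn2 to 2.17 for Phlda3.

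By level, the 10 genes ran in Lgr5-WT cells from Trp53 (112.8 FPKM) through Bax (60.6 FPKM), Ccng1, Mdm2, Trp53inp1, Sesn2, Bbc3 and Phlda3 to Zmat3 and Eda2r, both at about 1.75 FPKM. Neighbours in this order whose mice overlapped were Sesn2 with Bbc3 and Zmat3 with Eda2r. In Lgr5-CREPTKO cells Bax and Ccng1 overlapped, and Bbc3 and Phlda3 followed Mdm2. The genes that stood 2.04 times higher or more were the 4 lowest in Lgr5-WT cells.

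The profile nearest to that of Phlda3 over the 4 mice was sought among 11655 other genes whose mean reached 1 FPKM, by the root mean square distance of centred log2 values. The 5 nearest were Eaf2 (distance 0.304), Snord72 (0.365), Tmod4 (0.407), Lama5 (0.421) and 1700008O03Rik (0.446), and none of them is among the 10 genes or the p53 lists below. Eaf2, whose product associates with the elongation factor ELL, was 2.16 and 4.79 FPKM in Lgr5-WT cells and 11.0 and 14.5 FPKM in Lgr5-CREPTKO cells (log2 fold change 1.81). With 4 mice the measure mostly reflects the size of the difference between genotypes.

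To see how the rest of the pathway stood, a list of 58 other genes that p53 is known to activate was described in the same fit. Like the other lists below, it was chosen with earlier results of these data known, so its counts are a description and no independent test. The table held 56 of the 58 genes and 51 passed the filter on low values. Past an adjusted p of 0.05 in the limma fit, 2 of the 51 (3.92%) were higher, Ephx1 and Fdxr, and 0 were lower, against the 0.412% and 2.67% of all genes given above. At an unadjusted p below 0.05, 8 of the 51 were higher and 4 lower, where 9.27% of all genes tested were higher and 15.2% lower. The median log2 fold change was 0.10 (0.0461 without the filter and 0.178 with columns rescaled to the same total), against -0.01 over all genes tested, with 32 above and 19 below 0. Both Lgr5-CREPTKO values were above both Lgr5-WT values in 19 (37.3%, against 25.6%) and below them in 8 (15.7%, against 31.0%). Single genes of the list lay well apart from its median on either side.

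Ephx1 rose furthest. The gene, on chromosome 1 from 180989556 to 181017569, encodes microsomal epoxide hydrolase, which detoxifies reactive epoxides. It was 25.1 and 22.1 FPKM in Lgr5-WT cells and 51.5 and 53.3 FPKM in Lgr5-CREPTKO cells, and the genotypes lay far apart relative to their spread. In the limma fit its log2 fold change was 1.14 with a standard error of 0.0893 and an adjusted p of 0.0280, which ran from 0.0230 to 0.295 among the alternative settings. Fdxr, on chromosome 11 from 115268024 to 115277101, encodes the mitochondrial reductase that hands electrons to ferredoxin. It was 11.0 and 9.91 FPKM against 17.3 and 19.01 FPKM. Its log2 fold change was 0.77 with a standard error of 0.101, and limma's adjusted p of 0.0376 ran from 0.0331 to 0.295 among those settings.

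The best known targets outside the 10 genes did not pass the test. Cdkn1a, which encodes the cyclin-dependent kinase inhibitor p21, was 18.4 and 13.7 FPKM in Lgr5-WT cells and 15.2 and 15.7 FPKM in Lgr5-CREPTKO cells (log2 fold change -0.04, adjusted p = 0.907), with both Lgr5-CREPTKO mice between the Lgr5-WT mice. Pmaip1, which encodes the apoptosis protein NOXA, was 15.5 and 8.94 FPKM against 10.9 and 11.8 FPKM (log2 fold change -0.05, adjusted p = 0.924). Both values are close to 0 and their sign was positive when columns were rescaled to the same total. Fas, the death receptor, was 0.810 and 1.03 FPKM against 0.400 and 0.800 FPKM (log2 fold change -0.39, adjusted p = 0.453), and its log2 fold change was -0.123 without the first Lgr5-CREPTKO mouse and -0.654 without the second.

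Gdf15, a secreted stress hormone, was 6.35 and 3.99 FPKM in Lgr5-WT cells and 11.3 and 8.58 FPKM in Lgr5-CREPTKO cells, without overlap (log2 fold change 0.90, adjusted p = 0.115). The largest log2 fold changes below 0 were those of Dcxr, a reductase of carbonyl compounds and sugars, and of Btg2, an anti-proliferative gene that also belongs to the immediate early class. Dcxr was 17.8 and 14.6 FPKM against 5.61 and 9.50 FPKM (log2 fold change -1.09, adjusted p = 0.0889). Btg2 was 73.6 and 44.9 FPKM against 35.5 and 26.1 FPKM (log2 fold change -0.91, adjusted p = 0.134). In both, the genotypes did not overlap, and mice of the same genotype differed widely. The log2 fold change of Btg2 was -0.552 without the first Lgr5-WT mouse, that of Dcxr -0.736 without the first Lgr5-CREPTKO mouse, and that of Gdf15 0.594 without the second Lgr5-WT mouse.

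A second list held 36 genes whose products control or assist p53, of which 35 were in the table and all 35 passed the filter. In the limma fit 0 were past an adjusted p of 0.05, and at an unadjusted p below 0.05, 10 of the 35 were higher and 2 lower, beside the 9.27% and 15.2% of all genes. The median log2 fold change was 0.12, with 26 above and 9 below 0. Both Lgr5-CREPTKO values lay above both Lgr5-WT values in 21 (60.0%, against 25.6% of all genes). They lay below them in 7 of the 35, against 31.0% of all genes. Lack of overlap was thus frequent over all genes too, and this list exceeded them on the higher side only.

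Hipk2, a kinase that phosphorylates p53 and lies on chromosome 6 from 38687512 to 38876331, had the largest log2 fold change of the regulators. It was 8.86 and 6.48 FPKM in Lgr5-WT cells and 17.5 and 14.8 FPKM in Lgr5-CREPTKO cells (log2 fold change 1.04, standard error 0.174, adjusted p = 0.0558). Huwe1, a large ubiquitin ligase with p53 among its substrates, was 42.4 and 37.4 FPKM against 58.3 and 55.1 FPKM (log2 fold change 0.50, adjusted p = 0.0604). Atm, the kinase that responds to double-strand breaks, was 11.4 and 8.30 FPKM against 14.6 and 13.1 FPKM (log2 fold change 0.48, adjusted p = 0.171). Mdm4, the partner of Mdm2 that masks p53, was 31.7 and 29.7 FPKM against 39.2 and 36.3 FPKM (log2 fold change 0.29, adjusted p = 0.120). In all 4 genes both Lgr5-CREPTKO mice were above both Lgr5-WT mice. The value of Atm rested most on single mice, with a log2 fold change of 0.263 without the second Lgr5-WT mouse and 0.702 without the first.

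**Figure D3:**
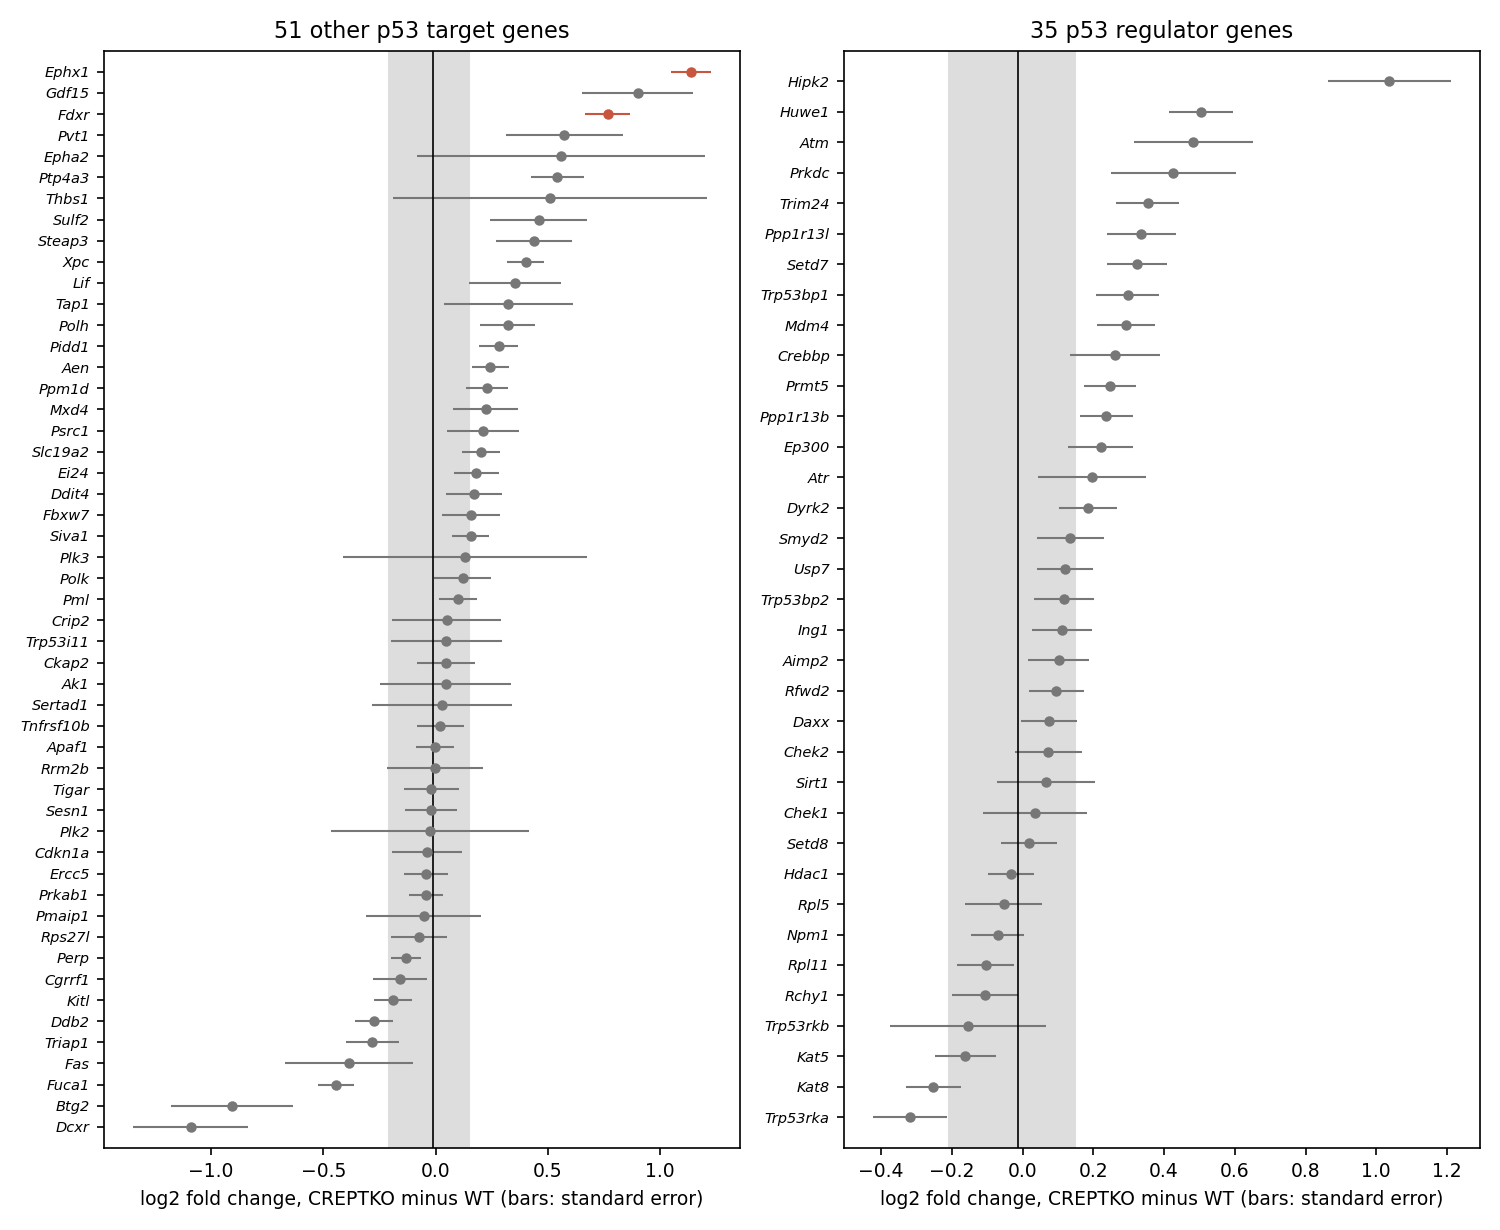
Log2 fold changes (Lgr5-CREPTKO minus Lgr5-WT) of the 51 other p53 target genes (left) and the 35 p53 regulator genes (right) that were tested, with standard errors. Red marks an adjusted p below 0.05, the line is the median of all genes tested and the band their middle quartiles. Ephx1 and Fdxr are the 2 genes in red, and the bars of Epha2, Thbs1, Plk3 and Plk2 are the widest.

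Some target genes varied between mice of the same genotype as the immediate early genes did, which respond within minutes to cell stress, dissociation included. The 15 dissociation and stress genes summed to 2675 and 1287 FPKM in the Lgr5-WT mice and to 2376 and 2245 FPKM in the Lgr5-CREPTKO mice, so the second Lgr5-WT mouse stood lowest. Their median log2 fold change was 0.22, and it was -0.25 without the second Lgr5-WT mouse. Plk3, a stress kinase, was 19.9 and 5.95 FPKM in Lgr5-WT cells against 10.7 and 13.7 FPKM in Lgr5-CREPTKO cells. Thbs1, which encodes the matrix protein thrombospondin 1, was 18.9 and 3.77 FPKM against 11.4 and 13.6 FPKM. Both were singled out after their values were seen. The part of handling in the differences between genotypes was not tested.

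Markers of some other cell types also moved with genotype. The 15 enteroendocrine markers summed to 232.7 and 334.6 FPKM in Lgr5-WT cells and to 78.4 and 86.3 FPKM in Lgr5-CREPTKO cells. Of 14 tested, 6 were lower at an adjusted p below 0.05 (Ghrl, Cck, Neurod1, Pax4, Chgb and Tac1) and 0 higher. Over all genes tested, 2.67% were lower at that level and 0.412% higher. The 8 goblet markers summed to 1473 and 2457 FPKM against 809 and 941 FPKM, with 1 of 8 lower at that level (Spink4). The 8 tuft markers summed to 28.3 and 62.2 FPKM against 24.3 and 8.78 FPKM, with 0 of 7 past it. Both Lgr5-CREPTKO values were below both Lgr5-WT values in 13 of 14 enteroendocrine, 7 of 8 goblet and 6 of 7 tuft markers tested. Over all genes tested this occurred in 31.0%. In bulk RNA, fewer cells of a type and less RNA per cell cannot be told apart. The 8 Paneth markers summed to 1439 and 1053 FPKM in Lgr5-WT cells and to 851 and 2610 FPKM in Lgr5-CREPTKO cells. For the 8 enterocyte markers the sums were 448 and 562 FPKM against 316 and 553 FPKM. For the 8 leukocyte markers they were 12.9 and 15.1 FPKM against 6.19 and 24.4 FPKM. These sums overlapped between genotypes, and in each the second Lgr5-CREPTKO mouse stood well above the first. The 8 markers of fibroblasts and endothelium summed to at most 0.660 FPKM. The 10 stem cell markers summed to 6171 and 5961 FPKM against 6690 and 6484 FPKM, most of it from Olfm4. In 9 of the 10 both Lgr5-CREPTKO values were above both Lgr5-WT values (90.0%, against 25.6% of all genes tested), and 0 were past an adjusted p of 0.05. The part of cell types in the differences of the p53 genes was not tested.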

How the data were processed

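RNA of Lgr5-GFP-high cells from 2 Lgr5-WT and 2 Lgr5-CREPTKO mice was sequenced on a BGISEQ instrument. The authors deposited FPKM values with 2 decimals, 1 column per sample, and by the methods of the study these came from Bowtie2 alignments to the transcripts of GRCm38.p6, from which RSEM estimated expression. Those methods describe RNA of crypts and whole intestines and do not mention sorted cells, so their use for these columns is assumed. The submitters' processing notes also name HISAT and mm10. Samples were assigned by column names, which match the sample titles. Same-numbered mice are not stated to be related.

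Values were analysed as log2(FPKM + 0.5) for the 12621 genes whose mean reached 0.5 FPKM, with limma 3.58.1 (lmFit, eBayes with an intensity trend) in R 4.3.3 and Benjamini-Hochberg adjustment over all genes tested. The study's own test needs counts, so its threshold was applied to limma. The fit was run on simulated data with an assumed depth and spread as a check of the code, which does not show how well it suits these data. Python 3.11.15 with pandas 2.3.3 was used for the rest. The study names the 2 samples of each genotype as 2 mice.

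The 10 genes and the gene lists were chosen with earlier results of these data known. Other genes are named if they were preset (Rprd1b, Cdkn1a, Pmaip1, Fas, Gdf15, Btg2, Mdm4, Trp63, Trp73), if they are targets or regulators with an adjusted p below 0.05, if they are among the 5 targets or 3 regulators with the largest absolute log2 fold change, or if they are among the 5 profiles nearest to Phlda3. Plk2, Plk3, Epha2, Thbs1, the stress genes and single markers were named after their values were seen. Kitl, Rfwd2 and Setd8 were matched by RefSeq synonym, and Spata18, Mir34a and Cdkn2a were not analysed here. Pseudocount, filter, scaling, trend, replicate block, left-out mice and threshold were varied.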

Additional observations from a re-analysis of the deposited data

How the results depend on the processing

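The number of genes called lower (128) and higher (16) was 0 and 0 without a filter on low values, 4 and 0 without the intensity trend, 337 and 52 at an adjusted p below 0.05 alone, and 84 lower with columns rescaled to the same total. Of the 10 genes, 1 was called (Phlda3), with 2 at a pseudocount of 0.1 and with quantile normalization, 3 at an adjusted p alone, and 0 without the filter and 0 without the trend. Of the other p53 targets, 2 were higher, and 0 without the filter and 0 without the trend. Of the regulators 0 were higher, and 1 with a filter at 1 FPKM, and their median log2 fold change of 0.12 was 0.195 with rescaled columns. With the replicate number as a block, 8 genes were called higher, 1 target was higher and 1 lower, and 1 regulator was higher. Across genes, the difference between the Lgr5-WT mice and that between the Lgr5-CREPTKO mice correlated at -0.0266. With a single pair of differences this value cannot show whether same-numbered mice share more than a number. Leaving out each mouse in turn gave 0 calls (from 0 to 0) in all genes, the 10 genes and the targets, and a regulator median from 0.0929 to 0.206, with fewer samples in each fit. The log2 fold change of Cdkn1a was 0.0383 and that of Pmaip1 0.0235 with rescaled columns, and without 1 mouse they ran from -0.25 to 0.17 and from -0.43 to 0.33. Over all alternatives the log2 fold change stayed between 1.96 and 2.37 for Phlda3, 0.81 and 1.17 for Bbc3, 1.01 and 1.72 for Eda2r, and -0.07 and 0.07 for Trp53. The cause of these changes was not tested. The files give no read numbers, so counting error at the low values of Eda2r, Zmat3 and Phlda3 is unknown.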

Other observations

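Sesn2 is also known to be induced by the integrated stress response, through the transcription factor ATF4, and other genes of that response were in the list of stress genes. Among them, Atf3 was 237.94 and 49.96 FPKM in Lgr5-WT cells and 117.55 and 142.4 FPKM in Lgr5-CREPTKO cells, with overlap (limma's adjusted p = 0.869). Asns, which encodes asparagine synthetase, was 45.8 and 42.9 FPKM in Lgr5-WT cells and 49.4 and 59.6 FPKM in Lgr5-CREPTKO cells, without overlap (log2 fold change 0.29, limma's adjusted p = 0.201). Ddit3, which encodes the transcription factor CHOP, was 11.2 and 8.30 FPKM against 7.06 and 8.70 FPKM, with an adjusted p of 0.401. Trib3 and Chac1 were below 0.6 FPKM in every mouse and were not tested. These genes were singled out after their values were seen. The part of this response in the difference of Sesn2 was not tested.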
